A study of Mus musculus with 8 samples.

Results

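Probes for the mature products of mmu-miR-132 and mmu-miR-212 were followed in the mouse amygdala, a temporal lobe structure needed for learned fear. Each capture probe of the array whose mouse name has the stem miR-132 or miR-212 was taken, whichever arm it names, which gave 4 of the 1034 probes with a mouse miRNA name. They are mmu-miR-132, mmu-miR-132*, mmu-miR-212-3p and mmu-miR-212-5p. All 8 mice were adult C57/Bl6J males without a transgene in the labels. The 4 home cage mice received no conditioning, and the 4 fear conditioned mice were killed 30 min after 5 pairings of a 6 kHz tone with a 0.6 mA shock. Bilateral amygdala punches of 1 mm gave 500 ng of total RNA per mouse for labelling, and each mouse had its own array. The conditioned mice met the tone, the shock and the handling together, so learning cannot be told apart from that exposure.

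miR-132 and miR-212 are cut from neighbouring hairpins of 1 primary transcript, whose promoter is bound by CREB, the transcription factor that calcium and cAMP activate in neurons. Neuronal activity and neurotrophins are known to raise the primary transcript, with the mature miRNAs following as it is processed. miR-132 is known for its action on the growth of dendrites and spines in neurons. In most accounts the 3p arm is the one loaded as the guide, and the star name marks the less abundant arm.

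In the RefSeq annotation of GRCm38.p6 the Mir212 hairpin lies at chr11:75173388-75173478 and the Mir132 hairpin at chr11:75173682-75173747, both on the plus strand, with 203 bases between them. The pair overlaps no other gene of that annotation. The nearest genes are Hic1, 3133 bases before it, and Ovca2, 2196 bases after it. The hairpins are shown with both mature arms in capitals, because the results set the arms of each hairpin side by side.
Mir212: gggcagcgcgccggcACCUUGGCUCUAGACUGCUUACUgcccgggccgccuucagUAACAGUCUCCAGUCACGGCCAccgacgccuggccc
Mir132: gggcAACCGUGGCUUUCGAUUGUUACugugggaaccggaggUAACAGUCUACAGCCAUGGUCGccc
The 4 mature sequences follow, with the seed, bases 2 to 8, in capitals, because shared seeds and shared bases decide which products can be read by a probe or a target in common. All 4 probes were matched to RefSeq by name, mmu-miR-132 to the 3p arm and mmu-miR-132* to the 5p arm.
miR-132-3p: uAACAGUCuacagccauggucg
miR-212-3p: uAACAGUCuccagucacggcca
miR-132-5p: aACCGUGGcuuucgauuguuac
miR-212-5p: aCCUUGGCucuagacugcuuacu
Of 1679 mature mouse names in that table, 2 carry the seed of the 3p arms, namely these 3p arms themselves. They begin with the same 9 bases and are identical at 17 of 22 positions when aligned from the 5′ end. The 5p arms have different seeds, and 9 of their first 22 positions are identical. The probes' own sequences were not used here, and whether the miR-132 and miR-212-3p probes read each other's target was not tested.

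Each probe was read in 2 ways. One is the normalised Hy3 signal, the log2 brightness of the dye on the mouse's own RNA after background correction and quantile normalization. The other is the authors' deposited log ratio of that RNA to a Hy5-labelled pool of RNA from the individual animals, taken as log2. On each array 582 to 717 mouse probes were brighter than 95% of the negative control probes, called detected below. Precision is limited by there being 4 arrays a group. The tissue label was borne out for neurons, with 14 of 18 probes of neuronal miRNAs detected on all 8 arrays and miR-124 at 14.46 ± 0.059 (SD, n = 4) in home cage mice. Of 11 probes for muscle and liver miRNAs 4 were detected on all arrays, none of these with a group mean over 6.85. Home cage array 1 stood apart, with 508 spots dimmer than their own background, where the others had 0 to 10. Its values correlated with those of other arrays at 0.977 on average, and each other array's at 0.990 or more. The conditioned arrays were brighter before normalization, with a 95th percentile of the spot signal from 600 to 901 against 498 to 589. Their spike-in controls were brighter too, at 10.26 to 10.44 log2 against 10.02 to 10.20, so array brightness and group cannot be told apart.

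All 4 members were detected on every array, with miR-212-5p nearest to its background. Averaged over spots, the signal was between 8.71 and 17.0 times the local background for miR-132, at least 5.57 times for miR-132*, between 4.11 and 7.81 times for miR-212-3p and between 2.05 and 2.58 times for miR-212-5p. Every member was above the negative controls on all 8 arrays, with the narrowest margin, 0.44 log2 units, for miR-212-5p on home cage array 1. Signal over background was thus narrowest for miR-212-5p.

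Each probe was printed 4 times on an array, which separates the error of a spot from the spread between arrays. That spread holds the mouse and its slide together. For miR-132 the SD of the 4 spots on an array had a median of 0.15, close to the SD between arrays of 0.17 in each group. Its 2 spots in the earlier print block deviated from the probe mean by 0.15 and 0.077 on average over arrays and its 2 spots in the later block by -0.11 each. Spots of the other members deviated by -0.024 to 0.047 on average. Why the miR-132 spots differed was not tested. For the other members the median spot SD was 0.049 (miR-132*), 0.051 (miR-212-3p) and 0.034 (miR-212-5p), against SDs between arrays from 0.038 to 0.17. Of the 128 member spots, 3 were left out for poor shape. All 3 lay on conditioned arrays and were bright, such as 720 against 253 for the other spots of miR-212-3p on array 2.

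Neither 3p arm differed beyond the spread between arrays 30 min after conditioning. miR-132 had Hy3 signals of 9.47, 9.41, 9.18 and 9.11 in home cage mice 1 to 4 and of 9.17, 9.01, 9.35 and 9.37 in conditioned mice 1 to 4. The groups overlapped almost fully, with 2 conditioned mice on each side of the home cage mean. The difference, conditioned minus home cage, was -0.068 (SE 0.107, 95% interval -0.32 to 0.18, limma adjusted p = 0.784, two-sided exact permutation p = 0.543). As a fold this interval runs from 0.803 to 1.13 with quantile normalization. The log2 interval is wider with median centring, -0.38 to 0.92, and with spike-in centring, -0.43 to 0.55. With spike-in centring limma gave all 4 members the same SE, 0.25, so that interval is not specific to the spread of miR-132.

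miR-212-3p, which carries the same seed, gave 8.36, 8.32, 8.13 and 8.11 in the home cage and 8.11, 8.11, 8.27 and 8.36 after conditioning. Its values thus fell into nearly the same order as those of miR-132, with home cage mice 1 and 2 and conditioned mice 3 and 4 high. The difference was -0.015 (SE 0.080, interval -0.20 to 0.17, limma adjusted p = 0.935, exact permutation p = 0.714), and it has no settled sign, being 0.030 without home cage array 1. As a fold the interval runs from 0.871 to 1.12 with quantile normalization, and it is wider with median centring, where the log2 interval is -0.30 to 0.73.

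The 5p arms were lower in the Hy3 signal, and neither passed the test. miR-132*, the 5p arm of miR-132, had 8.88, 8.76, 8.63 and 8.49 in home cage mice and 8.44, 8.43, 8.56 and 8.74 after conditioning. Conditioned mice 1 and 2 lay below every home cage mouse, and the others lay among them. The difference was -0.15 (SE 0.099, interval -0.38 to 0.078, limma adjusted p = 0.497, exact permutation p = 0.229), and -0.086 without home cage array 1.

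miR-212-5p showed the smallest p of the 4. Its signals were 7.29, 7.21, 7.12 and 7.01 in home cage mice and 6.96, 6.94, 7.01 and 7.02 in conditioned mice. Every conditioned mouse was below the home cage mean of 7.16, and 3 of them were below every home cage mouse. The difference was -0.18 (SE 0.058, interval -0.31 to -0.043, unadjusted p = 0.0159, limma adjusted p = 0.301, exact permutation p = 0.0571). With 4 arrays against 4 there are 70 arrangements, so no exact p can be under 0.0286. The difference was -0.028 with median centring and -0.24 with spike-in centring in place of quantile normalization. It was -0.086 with poorly shaped spots kept, -0.25 with an offset of 10 and -0.35 with plain background subtraction.

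**Figure D1:**
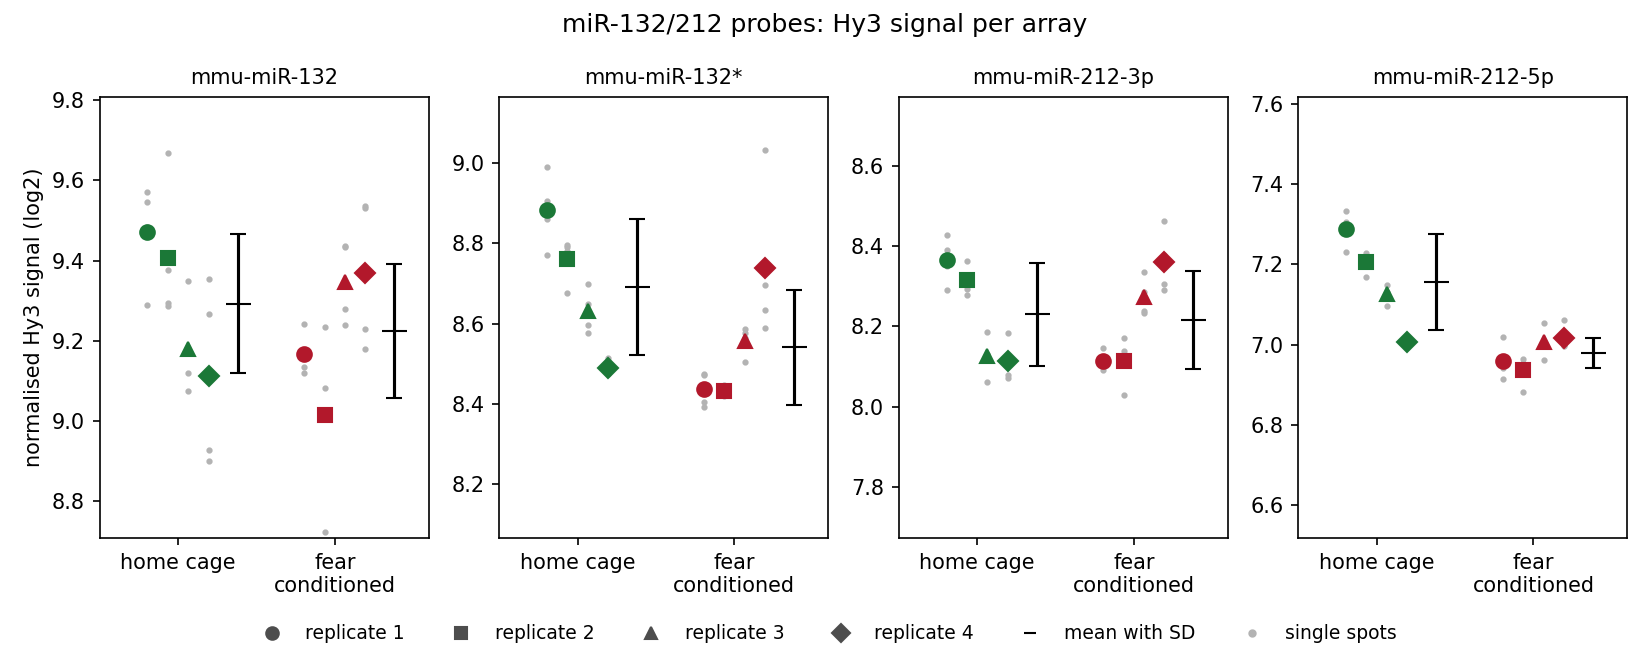
Normalised Hy3 signal (log2, y axis) of the 4 probes in each home cage and fear conditioned mouse, with replicates by marker, single spots as grey dots, and bars for the mean ± SD of 4 mice. Each panel spans the same range of log2 units around its own probe's mean. The groups overlap for every probe, and 3 of 4 conditioned mice lie below all home cage mice for miR-212-5p.

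None of the 4 members passed the limma test in the Hy3 signal, where 0.193% of the 1034 mouse probes did. At an unadjusted p under 0.05 it was 1 of 4 members, miR-212-5p, against 14.1% of all probes in either direction and 9.09% that were lower. Among the 501 probes detected on every array, as the members were, 109 had such a p. Groups without overlap, found for 9.47% of the 1003 probes with 8 values, were found for no member. All 4 differences were below 0, with a median of -0.11, whereas 52.3% of all mouse probes and 59.5% of the 501 probes detected on every array were below 0, with medians of -0.0043 and -0.026. The direction depended on the scaling. With median centring miR-132 was at 0.27, miR-132* at 0.12 and miR-212-3p at 0.22, and miR-212-5p alone stayed below 0. Spike-in centring, which lowers the median of all probes to -0.21, put miR-132 at 0.062 and miR-212-3p at 0.0074. It put miR-132* at -0.088 and miR-212-5p at -0.24. Both centrings shift all probes of an array equally. Values relative to the median of the probes detected on every array are thus the same by construction. That median was 0.10 with median centring and -0.11 with spike-in centring. Relative to it, miR-132 was at 0.17, miR-132* at 0.020, miR-212-3p at 0.12 and miR-212-5p at -0.13. In the scanned signal before scaling, conditioned arrays 3 and 4, whose spots were brightest as a whole, read 824 and 941 for miR-132, and all others between 455 and 609. The part of array brightness in these differences was not tested.

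The deposited ratio gave a second reading of the same mice. For miR-132 it was -0.18, -0.080, -0.23 and -0.29 in home cage mice and -0.31, -0.11, -0.12 and 0.084 after conditioning. Conditioned mice thus held both the lowest and the highest value. The difference was 0.080 (SE 0.084, interval -0.11 to 0.27, limma adjusted p = 0.817, exact permutation p = 0.457), opposite in sign to the Hy3 difference.

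For miR-212-3p the ratios were -0.028, -0.14, -0.30 and -0.35 in the home cage and -0.16, -0.34, -0.23 and -0.11 after conditioning, a difference of -0.0055 (SE 0.082, interval -0.19 to 0.18, limma adjusted p = 0.984). For miR-132* they were -0.092, -0.059, -0.27 and -0.28 against -0.14, -0.36, -0.22 and -0.16, a difference of -0.046 (SE 0.075, interval -0.21 to 0.12, limma adjusted p = 0.871). Home cage mice 1 and 2 were above home cage mice 3 and 4 for both, by more than the group means differed. miR-212-5p had -0.015, -0.065, -0.29 and -0.29 against -0.055, -0.18, -0.17 and -0.14.

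The lower Hy3 value of miR-212-5p had no counterpart in the ratio, where the difference was 0.029 (SE 0.075, interval -0.14 to 0.19, limma adjusted p = 0.922, exact permutation p = 0.743). None of the members passed in the ratio, in which 0% of 1034 probes passed in limma and 7.74% had an unadjusted p under 0.05 (1.35% lower), and their groups overlapped in each case, against 5.43% of probes without overlap. Of the 32 member ratios 31 were below 0, in both groups, while the median ratio of mouse probes on an array lay between -0.018 and 0.018. A shift common to all arrays cancels in the difference between groups.

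**Figure D2:**
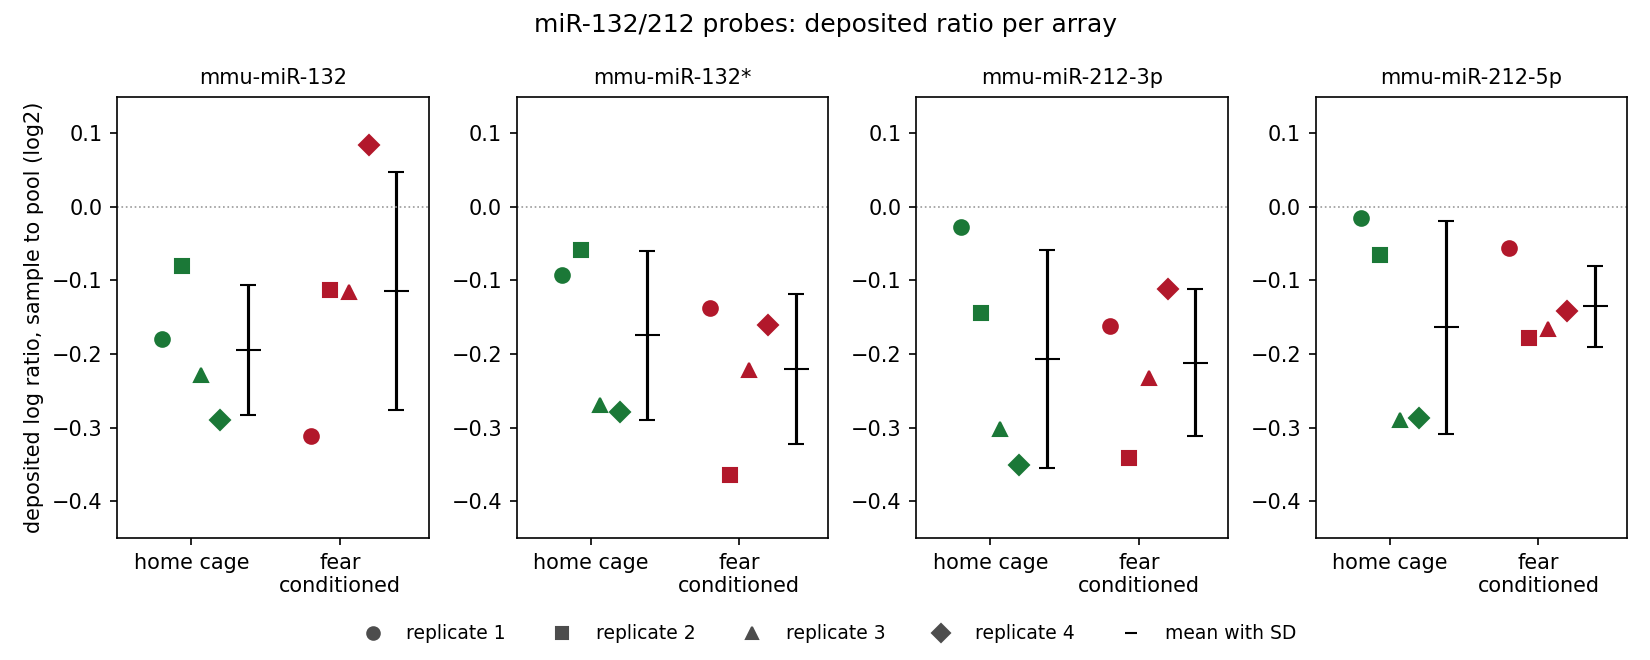
Deposited log2 ratio of sample to pool (y axis) of the 4 probes in each mouse, by group, with replicates by marker and bars for the mean ± SD of 4 mice; the dotted line marks a ratio of 0. The groups overlap for every probe, and 31 of the 32 values lie below 0.

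**Figure D3:**
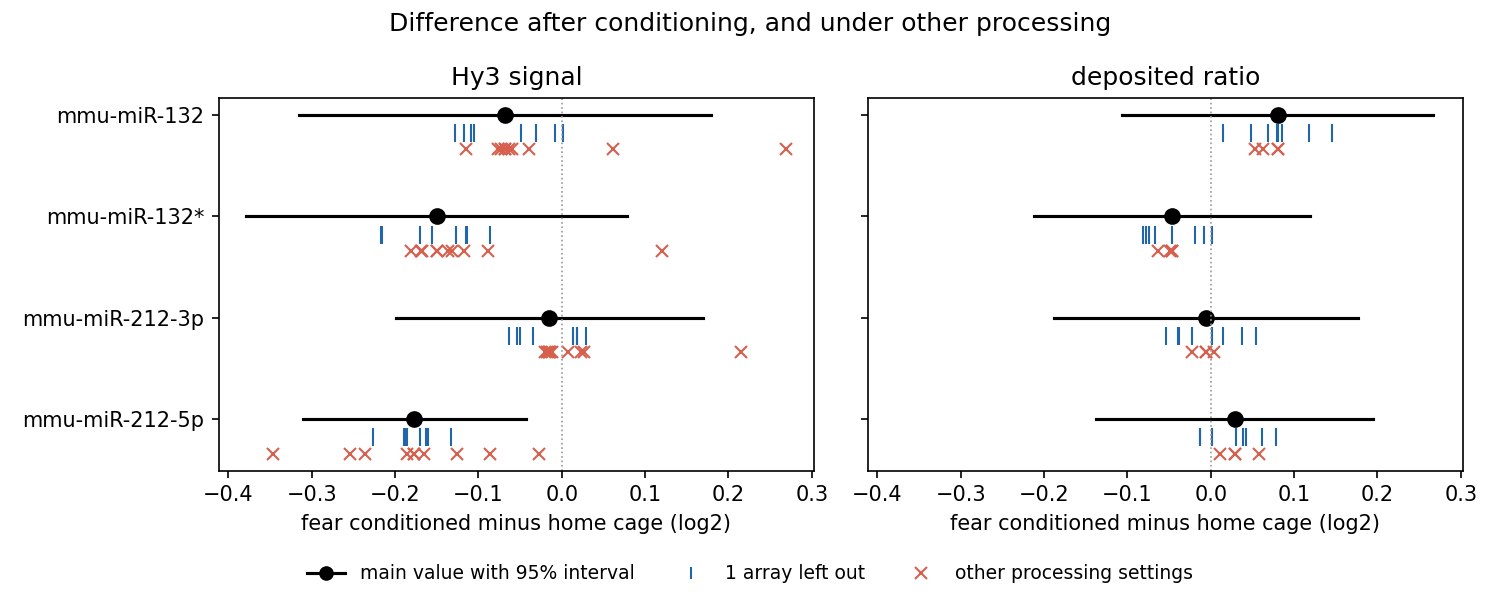
Conditioned minus home cage difference (log2, x axis) of each probe in the Hy3 signal (left) and in the deposited ratio (right). Black points and lines are the limma values with 95% intervals, blue ticks leave out 1 array, and red crosses are the other settings. Of the 8 intervals only that of miR-212-5p in Hy3 leaves out 0, and its adjusted p was 0.301.

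The arms of a hairpin were then compared with each other within each array, because they come from the same transcript. What an array adds equally to both on the log2 scale cancels, and what it adds unequally does not. The comparison measures only whether the arms changed unequally, and no level of one probe against another. For miR-212, the 3p minus 5p value came to 1.07 ± 0.051 (SD, n = 4) for home cage mice and 1.24 ± 0.086 for conditioned mice, and it was above every home cage mouse in all 4 conditioned mice (1.16 to 1.34 against 1.00 to 1.11). The difference was 0.16 (SE 0.050), with an exact permutation p of 0.0286, the smallest possible, and 0.114 after adjustment over the 4 contrasts compared. It was 0.24 with median centring (exact permutation p = 0.229), 0.11 with poorly shaped spots kept (exact permutation p = 0.600) and 0.33 with plain background subtraction (adjusted exact permutation p = 0.0571). It did not recur in the ratio, where it was -0.034 (SE 0.044, exact permutation p = 0.543). In the scanned signal miR-212-3p read 392 and 414 on conditioned arrays 3 and 4, against 248 and 253 on conditioned arrays 1 and 2. On the same arrays miR-212-5p, which is nearer its background, read 136 and 138 against 111 and 110. The part of array brightness in this contrast was not tested.

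For miR-132 the 3p minus 5p value changed by 0.082 (SE 0.051, exact permutation p = 0.200, adjusted p = 0.381) in Hy3 and by 0.13 (SE 0.103, exact permutation p = 0.257) in the ratio. Between the sister miRNAs, miR-132 minus miR-212-3p changed by -0.053 in Hy3 (SE 0.045, exact permutation p = 0.286) and by 0.086 in the ratio (SE 0.102). miR-132* minus miR-212-5p changed by 0.027 in Hy3 (SE 0.061) and by -0.075 in the ratio (SE 0.042, exact permutation p = 0.0857, adjusted p = 0.343). No contrast passed after adjustment in either reading. Adjusted over 4 contrasts, the smallest possible exact p of 0.0286 came to 0.114 for the miR-212 arms in Hy3. A contrast alone at that smallest p thus could not pass.

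The members also varied together from array to array. In Hy3, miR-132 and miR-212-3p correlated over the 8 arrays with Pearson's r = 0.94 (exact permutation p = 0.0043, adjusted p = 0.013 over 6 pairs) and Spearman's rho = 0.98 (exact permutation p = 0.0004, adjusted p = 0.0023). Without the 2 arrays farthest from the median of miR-132, home cage 1 and conditioned 2, r was 0.96, and for deviations from the group means 0.95. Among the 500 other probes detected on every array, miR-212-3p was the most like miR-132, and miR-132 the most like miR-212-3p. The median r of miR-132 with these probes was 0.29. These are the products whose sequences, shown above, share 17 of 22 positions.

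The arms of miR-132 correlated with r = 0.88 (rho = 0.95, exact permutation adjusted p = 0.014 and 0.0023), and with r = 0.78 without the 2 farthest arrays. The arms of miR-212 did not pass by Pearson's r in Hy3 (r = 0.60, exact permutation p = 0.124, rho = 0.79 with adjusted p = 0.028). Of the other pairs, miR-132* gave r = 0.86 with miR-212-3p and 0.88 with miR-212-5p (exact permutation adjusted p = 0.018 and 0.013), and 0.77 and 0.64 without home cage arrays 1 and 2. miR-132 with miR-212-5p gave r = 0.72 (exact permutation adjusted p = 0.057) and 0.42 without its 2 farthest arrays. Apart from the 3p pair, probes outside the locus followed a member more closely than its partner did. Of 500 probes, miR-132* was at rank 6 for miR-132 and miR-132 at rank 37 for miR-132*, and the arms of miR-212 were at ranks 94 and 177 for each other.

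In the ratio the grouping was another one. miR-132*, miR-212-3p and miR-212-5p correlated with each other, with r = 0.89 for miR-132* and miR-212-3p, 0.85 for the arms of miR-212 and 0.78 for miR-132* and miR-212-5p (exact permutation adjusted p = 0.027, 0.027 and 0.050 over 6 pairs). Without the 2 farthest arrays these were 0.97, 0.71 and 0.98, and within groups 0.91, 0.87 and 0.85. Spearman's rho was 0.86, 0.83 and 0.83 (exact permutation adjusted p = 0.031 each). Ranked by r among 500 probes, each of these 3 was between rank 2 and rank 14 in the list of the others.

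miR-132 correlated less with them in the ratio, with r = 0.34 to miR-212-3p, 0.17 to its own 5p arm and 0.19 to miR-212-5p (exact permutation p = 0.410, 0.696 and 0.661; rho = 0.38, 0.17 and 0.095). Its ranks there lay between 124 and 228 of 500. Without conditioned arrays 1 and 4, the farthest from its median, r was 0.36, 0.32 and 0.64. The value with miR-212-5p thus moved most and that with miR-212-3p hardly. Without home cage array 1, r with miR-212-3p was 0.50. Over the 8 arrays the Hy3 signal and the ratio of one probe correlated with r = 0.82 for miR-212-3p, 0.69 for miR-132*, 0.45 for miR-132 and 0.40 for miR-212-5p, although the ratio contains the Hy3 value. Without home cage array 1, r in Hy3 was 0.92 for miR-132 with miR-212-3p, and r in the ratio was 0.89, 0.79 and 0.73 for the 3 correlated pairs in the order above.

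**Figure D4:**
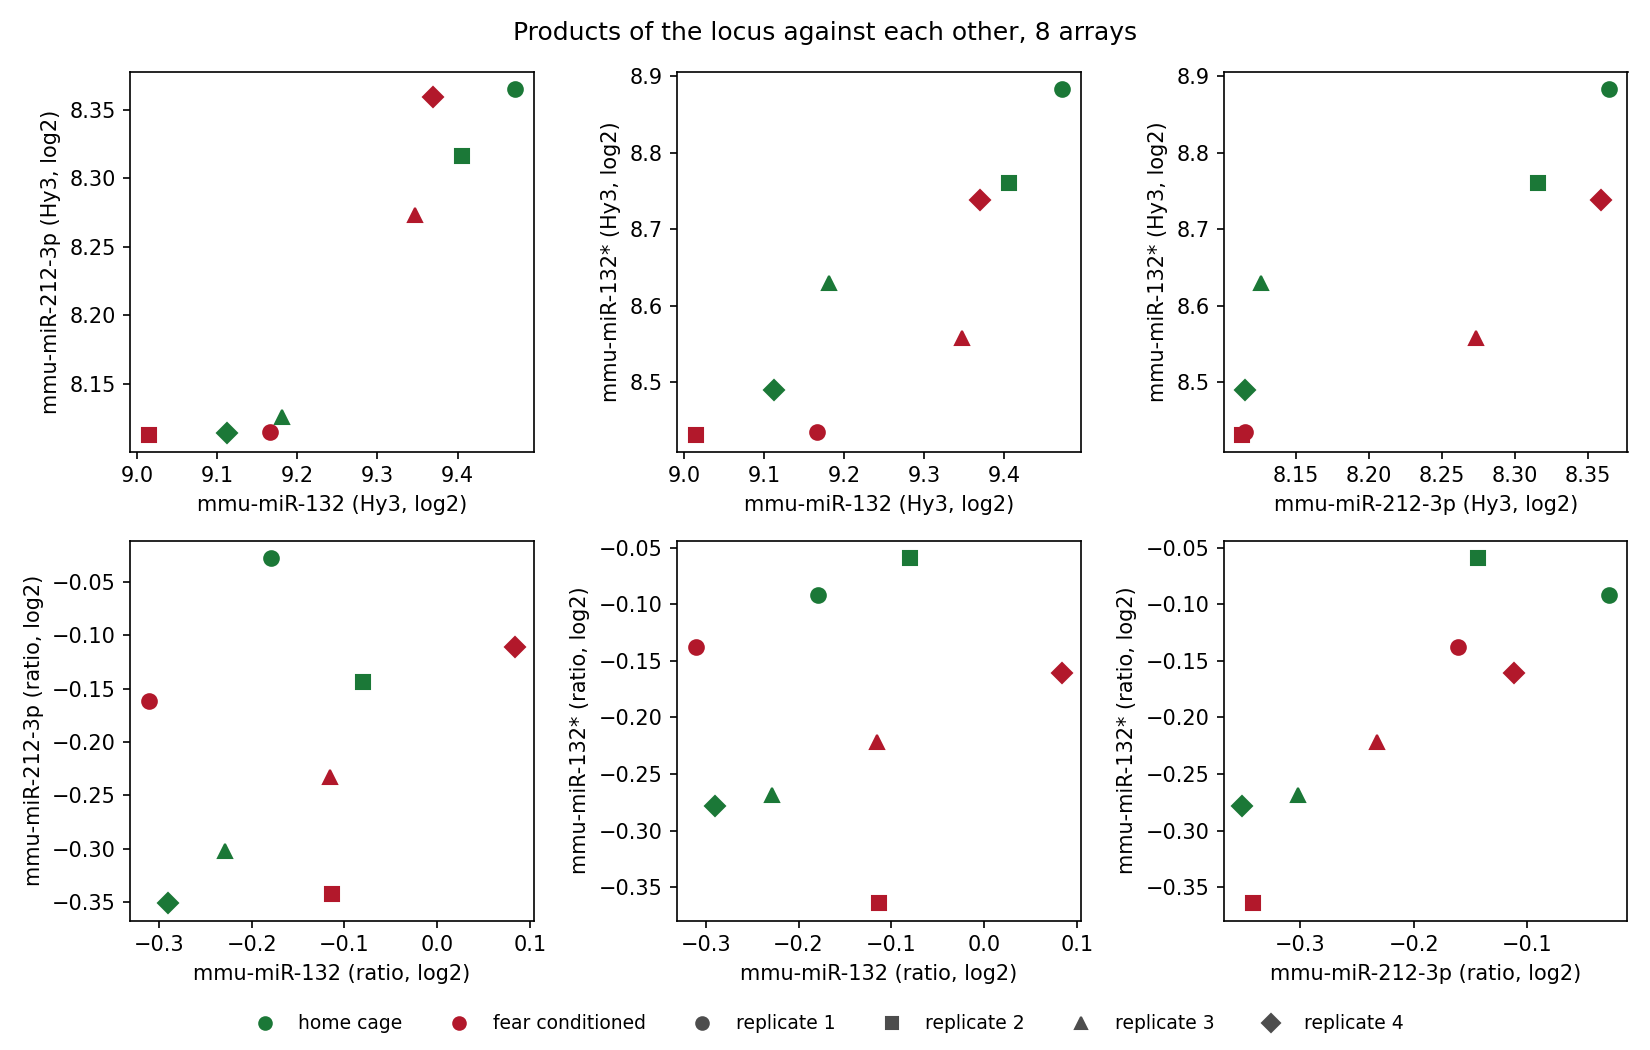
Each point is 1 array, with colour for group and marker for replicate, and both axes are log2 values, of the Hy3 signal in the upper row and of the deposited ratio in the lower row. miR-132 follows miR-212-3p in Hy3 (r = 0.94) and less closely in the ratio (r = 0.34), whereas miR-132* follows miR-212-3p in both (r = 0.86 and 0.89).

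Outside the locus, the probes most like a member in Hy3 were miR-340-3p (r = 0.93) and miR-194 (r = 0.92) for miR-132, and miR-340-3p (r = 0.93) and miR-138 (r = 0.92) for miR-212-3p. For miR-132* they were miR-342-3p (r = 0.98), miR-700* (r = 0.98) and miR-139-5p (r = 0.96). For miR-212-5p they were miR-129-5p and miR-153, both neuronal miRNAs, and miR-421, with r = 0.98, 0.97 and 0.97. In the ratio the r of these same pairs ran lower, from -0.17 for miR-132 with miR-340-3p to 0.77 for miR-132* with miR-342-3p. All arrays were scaled together, so these values are a description over 8 arrays.

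Other miRNAs linked to neuronal activity, plasticity or memory, 25 names with 55 probes and without the members, behaved much like the array as a whole. None of the 55 passed in limma in either reading, where 0.193% and 0% of all probes did. In Hy3, 36 were lower and 19 higher, with a median of -0.020 (0.055 with median centring, 34 higher). With spike-in centring 12 were higher, with a median of -0.15 against -0.21 over all probes. In the main Hy3 values 10 had an unadjusted p under 0.05 (18.2% against 14.1% of all probes), 3 of them higher and 7 lower. In the ratio 32 were higher and 23 lower, with a median of 0.019 against 0.031 over all probes.

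Of the 29 of these detected on every array, those with the smallest p that were higher were miR-138-2* (0.27, SE 0.058) and miR-138-1* (0.15, SE 0.035), the star arms of a miRNA that limits spine size, and miR-26b (0.42, SE 0.121). Those lower were miR-329 (-0.26, SE 0.061), an activity-regulated miRNA of the miR-379 to miR-410 cluster, miR-26a (-0.14, SE 0.043), a near-identical relative of miR-26b, and miR-485 (-0.093, SE 0.035), which acts on presynaptic protein levels. Their limma adjusted p ran from 0.141 to 0.344. With median centring miR-26a and miR-485 turned to 0.19 and 0.040 and miR-329 came to -0.017. In the ratio miR-138-2* was at -0.063 and miR-329 at 0.14.

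Markers of other cells that a punch can hold did not pass either, with 0 called in each list. The list of choroid plexus and ventricle wall miRNAs had 10 of 12 probes higher after conditioning in Hy3 and 11 of 12 in the ratio, with medians of 0.12 and 0.25. Of all 1034 mouse probes, 493 were higher in Hy3 and 654 in the ratio, with medians of -0.0043 and 0.031. The mean Hy3 level of the choroid plexus list ran from 6.84 to 7.55 in home cage mice and from 7.02 to 7.68 in conditioned mice. On every array 8 of its probes were detected, and 2 on none. With median centring 8 of 12 were higher and with spike-in centring 5 of 12, at medians of 0.11 and -0.099. Neuronal markers had 15 of 18 lower in Hy3 (median -0.073), 8 of 18 with median centring and 8 of 18 in the ratio. With spike-in centring 13 of 18 were lower (median -0.18, against -0.21 over all probes). In Hy3, 7 of the 18 (38.9%, against 14.1% of all probes) had an unadjusted p under 0.05, 5 of them lower and 2 higher. Their part in the members' lower Hy3 values was not tested. The mean level of the neuronal list ran from 8.73 to 8.86 in home cage mice and from 8.65 to 8.80 in conditioned mice. Medians in Hy3 for oligodendrocytes, astrocytes, leukocytes, vessels, red blood cells and the muscle and liver set lay between -0.054 and 0.022. The part of the cells in the punch in the members' values was not tested, and in such bulk tissue fewer cells of a type and less RNA per cell cannot be told apart.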

How the data were processed

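Per the labels' protocols, RNA of each mouse was labelled with Hy3 and a pool with Hy5 and hybridised to an array. Spot and background intensity in 1 channel, and a quality flag for each spot, are deposited per the file headers. The channel was read as Hy3, because its probe deviations tracked the ratios on every array (r from 0.34 to 0.74 over 501 probes). The authors' log ratios were read as log2 of sample to pool. Their log base, direction and normalization are not stated in those sources, and the slope of log2 Hy3 on the ratio, 0.703 over 20 probes that varied widely, lies nearer to the 1 of log2 than to the 1.44 of natural logs.

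Spots flagged 3 (poor shape) or 4 (background above signal) were left out, backgrounds corrected (normexp, offset 50), arrays quantile normalized over capture probes and spots averaged as log2. Probes had to exceed the 95th percentile of blank and negative control spots together on 4 arrays, a low limit that all 1034 passed (667 exceeded that of the negative control probes alone, used for "detected"), and were fitted with limma 3.58.1 (R 4.3.3, lmFit, eBayes, two-sided, Benjamini-Hochberg threshold 0.05), tested on simulated data. Contrasts and correlations had two-sided exact permutation tests (scipy 1.17.1). Alternatives changed offset, background, scaling, flags, spot summary, filter, weights, block and arrays. Named are every member, the 3 probes most like each in Hy3, and per list at most 3 higher and 3 lower detected probes by p. Members, lists and tests were chosen with earlier results of these data known. Each array had its own slide, so slide and mouse cannot be told apart. Replicate numbers did not pair the samples (correlations of same-numbered deviations from -0.53 to -0.0035).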

Additional observations from a re-analysis of the deposited data

Results flagged for a closer look

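In 2 of the 32 groups of 4 values examined (4 probes and 4 contrasts, 2 readings, 2 groups) the lowest or highest value lay far from the other 3. Chance gives about 1 in 20 such groups. Both came from home cage mouse 1 in the deposited ratio. Its miR-132 minus miR-212-3p value was -0.15, against 0.061 to 0.074 in home cage mice 2 to 4. Its miR-132* minus miR-212-5p value was -0.077, against 0.0057 to 0.020. This is the array with 508 spots whose background exceeded the signal. Without it the changes of these contrasts after conditioning were 0.031 and -0.097, in place of 0.086 and -0.075.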

How the results depend on the processing

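No member or contrast passed its adjusted test under any setting tried. For the contrasts, 1 array left out allows no exact p under 0.0571 and the block of 4 pairs none under 0.125, so those settings could not pass. With all arrays, a contrast alone at the smallest exact p of 0.0286 has an adjusted p of 0.114, so it could not pass by itself. Of 72 alternative values of the member differences in Hy3, 60 kept their sign, and of 48 in the ratio 40. For the contrasts these were 59 of 64 and 36 of 36. The counts include the replicate block and, for the members, the filter on negative controls, which cannot change a difference and so cannot turn a sign. Signs turned with median centring (miR-132 0.27, miR-132* 0.12, miR-212-3p 0.22, miR-132 minus miR-212-3p 0.054), with spike-in centring (miR-132 0.062, miR-212-3p 0.0074, miR-132 minus miR-212-3p 0.054), without background subtraction (miR-212-3p 0.026, miR-132* minus miR-212-5p -0.0053), with flagged spots kept (miR-212-3p 0.024, miR-132* minus miR-212-5p -0.031) and with array weights in the ratio (miR-212-3p 0.0041). The cause was not tested. With 1 array left out, Hy3 differences ran from -0.13 to 0.0017 for miR-132, -0.22 to -0.086 for miR-132*, -0.063 to 0.030 for miR-212-3p and -0.23 to -0.13 for miR-212-5p, and ratio differences from 0.014 to 0.15, -0.081 to 0.0016, -0.054 to 0.054 and -0.013 to 0.078. The contrast of miR-132* minus miR-212-5p ran from -0.026 to 0.055 in Hy3. The arm contrast of miR-212 in Hy3 ran from 0.13 to 0.19, and over all settings from 0.11 with flagged spots kept to 0.33 with plain subtraction and a floor of 1 (adjusted p = 0.0571).

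The count of Hy3 calls over all mouse probes, 2 as reported, was 0 without background subtraction, with plain subtraction, with median centring, with spike-in centring and with the replicate block, 1 with flagged spots kept, 4 with the median of spots and 12 with array weights. It ran from 0 to 2 with 1 array left out, and the ratio count was 0 throughout. The replicate block cannot change a difference, since each block holds 1 array of each group. With it, miR-212-5p was at -0.18 (limma adjusted p = 0.576) and the miR-212 arm contrast at 0.16. The exact p of this contrast was then the smallest that 4 pairs allow. The numbers are only names, since 0 of 8 arrays correlated best with their own number in the other group. Signal over background limits miR-212-5p most.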
